A study of Mus musculus with 10 samples.

Results

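Imprinted genes are genes that a cell reads mainly from the copy inherited from 1 parent. They sit in domains, each under an imprinting control region whose DNA methylation is set in egg or sperm, and in many domains a long non-coding RNA made from 1 parental copy keeps neighbouring protein genes silent on that copy. As a class they are best known for control of fetal and placental growth, and several act in brain and in the endocrine tissues, the pituitary among them. A fixed list of 40 mouse imprinted genes was followed here, out of 53801 genes in the count table. The genes were chosen by symbol, with earlier results of these data known. Of the 40 genes, 15 are listed as expressed from the maternal copy and 25 from the paternal copy. Read counts per gene do not tell the parental copies apart, so the values below are total levels and not imprinting states.

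The RNA came from AtT20/D16v-F2 cells, a mouse line derived from a corticotroph tumour of the pituitary. All cells carried a lentivirus that expressed a short hairpin RNA (shRNA). In 1 stable line, the source of 5 control libraries, this was a non-targeting shRNA, and in the other, the source of 5 knockdown libraries, it was *Creb3l1*-shRNA1, directed against the transcription factor gene *Creb3l1*. There was 1 line for each shRNA, so a difference caused by the knockdown and one that arose when a line was made cannot be told apart. The study calls its replicates biological, and how the 5 libraries of a line were separated as cultures is not given in the sources used here. The p-values measure the spread between libraries of 1 line.

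Each library held between 17420698 and 22205107 counts. The count of *Creb3l1*, normalised for library size, was between 3531 and 3864 in control libraries and between 1014 and 1159 in knockdown libraries, so the targeted gene followed the labels in all 10. Of the 14336 genes with enough counts to be tested, 40.7% passed an adjusted p under 0.01 between the lines (edgeR quasi-likelihood test, Benjamini-Hochberg adjustment over all genes tested), 20.6% higher in knockdown cells and 20.1% lower. Control replicate 3 stood apart through *Gm42418*, a non-coding gene with 4.13% of its counts. Knockdown replicates 1, 2 and 5 departed from the mean of their line in step with the GC content of the transcripts, with a Spearman correlation across genes of -0.329, 0.389 and -0.236, against -0.134 to 0.0903 in control libraries. Genes of one library share its preparation, so these correlations are descriptions. The corticotroph markers *Pomc* and *Tbx19* were abundant, with *Pomc* between 126258 and 137531 normalised counts in control cells and between 87908 and 95082 in knockdown cells, and 7 of 8 such markers had enough counts to be tested (*Avpr1b* had none). The summed count of 10 markers of other pituitary cells was between 216 and 281 in control libraries and between 232 and 282 in knockdown libraries, and *Prl*, *Fshb*, *Tshb* and *Pou1f1* were at 0. For 10 stromal, endothelial and immune markers the sums were 870 to 1206 and 979 to 1725, most of it collagen RNA, with *Ptprc*, *Cdh5* and *Kdr* at 0. In this list *Col1a1*, *Col1a2*, *Pecam1* and *Cd68* were tested, with 0 higher and 1 lower (25.0% called). The part of these differences in the results below was not tested.

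Promoter sequences were read for the listed genes, and short DNA words were searched in them. The windows were not placed to cover the imprinting control regions of the domains. The RefSeq table of GRCm38.p6 held 49 promoter windows for 32 of the 40 genes, each from 250 bases before to 50 bases after the start of transcription. The windows of imprinted genes were richer in CpG, with a median of 15 CpG per window against 7 over all 32851 windows of the table. The word TGCCGC, the core that the imprint-keeping protein ZFP57 binds when it is methylated, was searched on both strands. It was in 11 of the 49 windows (22.4%), from 10 genes, and in 11.6% of all windows. The G-box word GACGTG, to which CREB3-family factors can bind, was in 4 of the 49 windows (8.16%), those of *Ascl2*, *H13*, *Igf2* and *Kcnq1ot1*, and in 6.38% of all windows. The YY1 word GCCATNTT was in 3 windows (6.12%) against 6.05% of all windows. A word is only a match of letters, and the windows of 1 gene can overlap.

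Below are the 120 bases before the start for 4 genes, shown because 3 of them (*Zim1*, *Plagl1* and *Mest*) stand for a member that was higher, one that was lower and one that did not pass the test and all hold the ZFP57 word, while the fourth, *Kcnq1ot1*, is the non-coding RNA of its domain and holds the G-box. Each is written 5′ to 3′ on the strand of the gene, and capitals mark the word, here as its reverse complement in each case. *Zim1* lies on the minus strand at chr7:6696433-6696552, *Plagl1* on the plus strand at chr10:13090712-13090831, *Mest* on the plus strand at chr6:30737930-30738049 and *Kcnq1ot1* on the minus strand at chr7:143296548-143296667.
Zim1: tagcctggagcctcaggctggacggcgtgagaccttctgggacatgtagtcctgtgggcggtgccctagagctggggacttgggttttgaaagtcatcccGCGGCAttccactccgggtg
Plagl1: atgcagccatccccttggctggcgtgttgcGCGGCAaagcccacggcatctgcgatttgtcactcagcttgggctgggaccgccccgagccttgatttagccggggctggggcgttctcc
Mest: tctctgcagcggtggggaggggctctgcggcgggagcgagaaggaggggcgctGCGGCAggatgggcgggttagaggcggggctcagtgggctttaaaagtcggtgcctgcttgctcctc
Kcnq1ot1: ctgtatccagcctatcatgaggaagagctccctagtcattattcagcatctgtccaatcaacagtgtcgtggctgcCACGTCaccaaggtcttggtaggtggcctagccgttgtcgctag

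Of the 40 imprinted genes, 16 had too few counts to be tested, and 6 of these had no count in any library, where 27035 of the 53801 genes in the table had none. The 6 were *H19* and *Igf2*, the paired non-coding RNA and growth factor gene of one domain, *Dlk1*, a membrane protein related to Notch ligands, *Ndn* and *Magel2*, a pair of MAGE-family genes, and *Rasgrf1*, a Ras exchange factor. With 99380436 counts in the control line and 103415535 in the knockdown line, a count of 0 allows up to 3 counts per line, or 0.0302 and 0.029 CPM (counts scaled to library size), from counting error alone. A further 10 genes had between 1 and 80 counts over all 10 libraries and were not tested. Of these, *Usp29* had 80 counts, *Snrpn* 53, *Ascl2* 52, *Nnat* 29, *Meg3* 27, *Peg3* 21, *Rtl1* 5, *Airn* 2, *Slc38a4* 2 and *Dio3* 1. *Snrpn*, the small nuclear ribonucleoprotein gene, had 16 counts in the control line and 37 in the knockdown line, and it shares 589 exon bases with *Gm38393* on the same strand, so its reads are uncertain. *Peg3*, a zinc finger gene that gives its name to a domain, had 6 and 15 counts.

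The other 24 imprinted genes were tested. They spanned a wide range of levels, shown in the plot of normalised counts per kilobase of exon. By its mean over all 10 libraries, *Plagl1*, a zinc finger transcription factor that restrains growth, lay above 91.7% of all genes tested. In the control line it was highest of the 24 with 1029 normalised counts per kilobase. *Igf2r*, the receptor that carries IGF2 to lysosomes, followed with 586, and *H13*, the signal peptide peptidase, with 585. The libraries of *Igf2r* and *H13* overlapped, so their order is not settled. Lowest were *Kcnq1ot1* with 4.68, *Rian* with 3.70, *Peg10* with 2.78 and *Grb10* with 2.35, and neighbours in this order overlapped. Of the 23 pairs of neighbours in the whole order, 11 had libraries that overlapped.

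**Figure D1:**
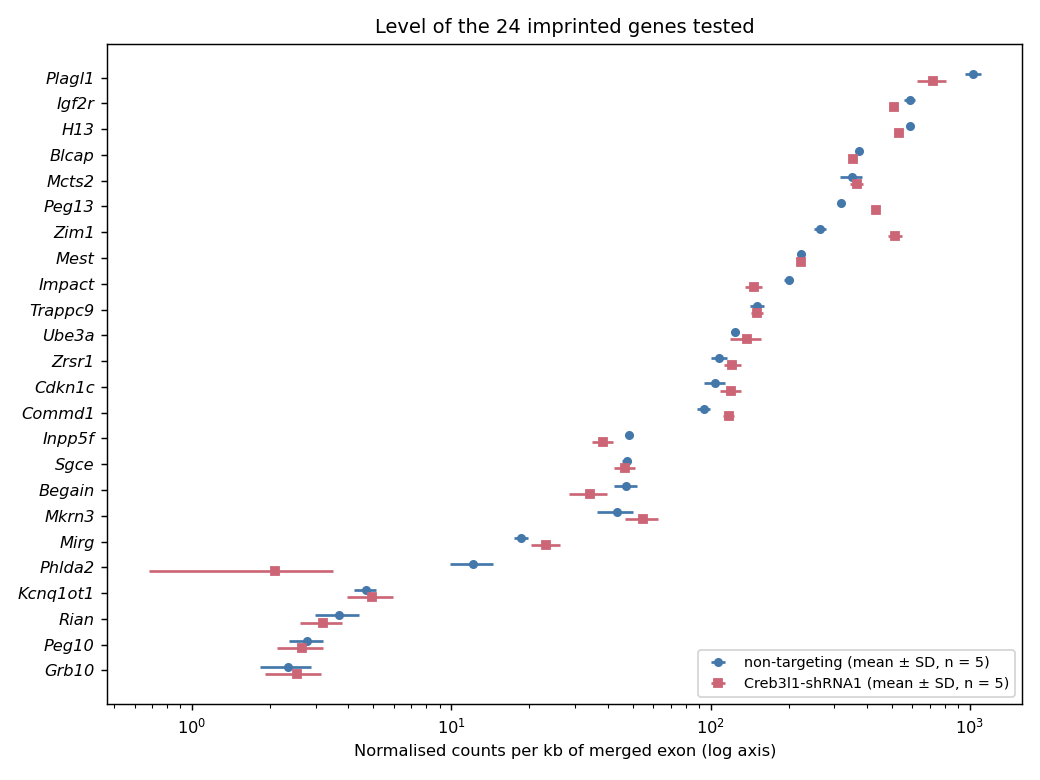
Level of the 24 tested imprinted genes, as normalised counts per kilobase of merged exon on a log axis, in 5 non-targeting libraries (blue circles) and 5 *Creb3l1*-shRNA1 libraries (red squares), with bars of 1 SD. Control levels run from 2.35 for *Grb10* to 1029 for *Plagl1*, and the largest separations between the lines are at *Phlda2* and *Zim1*.

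Between the lines, 11 of the 24 tested imprinted genes (45.8%) had an adjusted p under 0.01, close to the 40.7% of all genes. *Zim1*, *Peg13*, *Commd1* and *Mirg* were higher in knockdown cells, which is 4 of 24 beside 20.6% of all genes. *Phlda2*, *Plagl1*, *Begain*, *Impact*, *Inpp5f*, *Igf2r* and *H13* were lower, which is 7 of 24 beside 20.1%. The median log2 fold change of the 24 genes was -0.0048 against -0.0025 over all genes, and the median size was 0.20 against 0.15. Only *Zim1* and *Phlda2* passed the test with at least 1.5-fold, beside 7.73% of all genes, and 9 of the 24 had libraries that did not overlap between the lines, beside 36.0%. *Phlda2* is in these counts, though it had to differ to pass the filter on low counts. Genes of maternal expression went both ways, with 3 higher and 3 lower of 12 tested, and of 12 tested genes of paternal expression 1 was higher and 4 were lower. In bulk RNA, fewer cells that express a gene and less RNA per cell cannot be told apart.

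**Figure D2:**
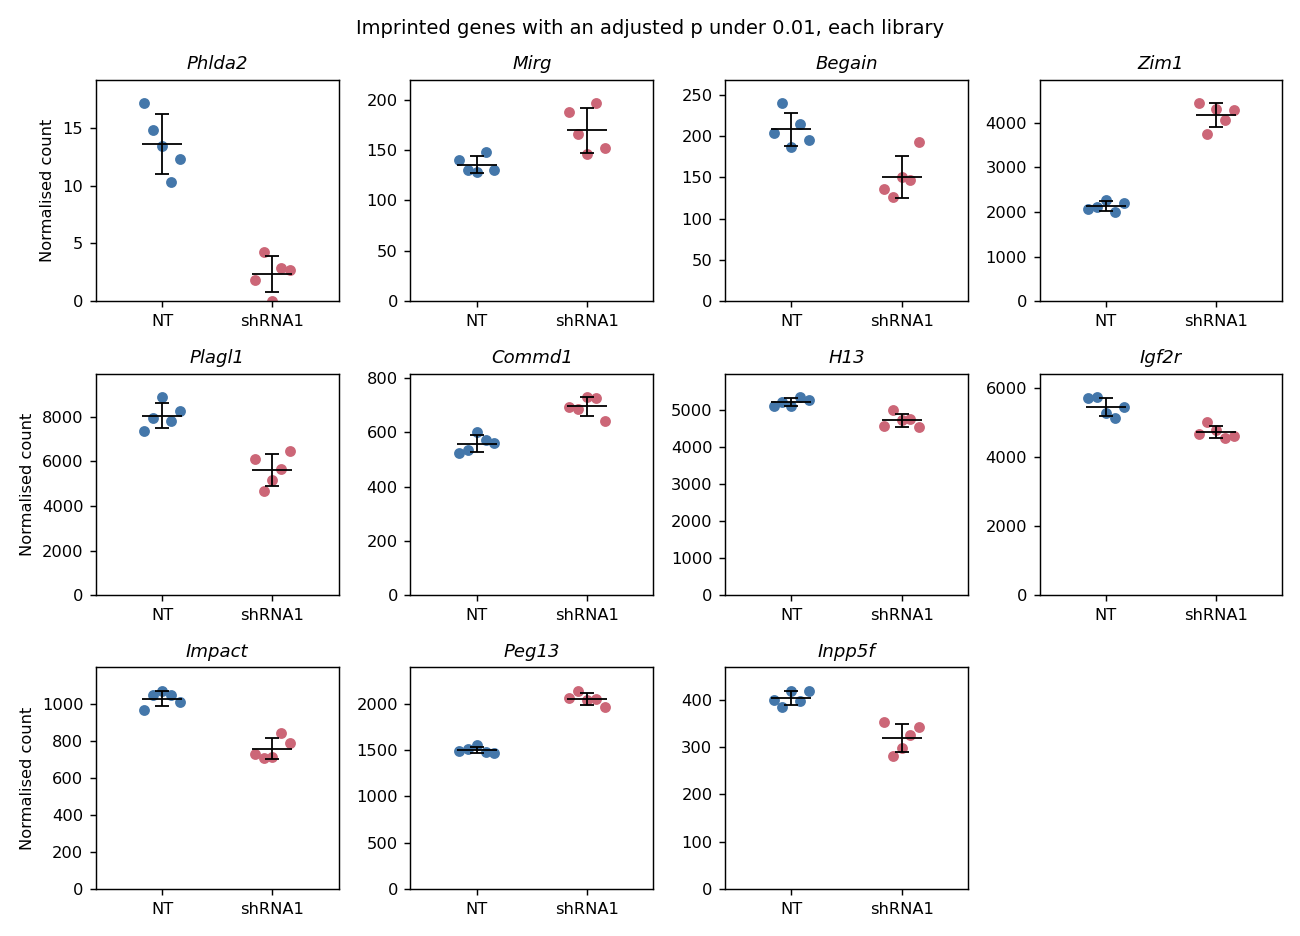
Normalised counts in each library for the 11 imprinted genes with an adjusted p under 0.01, in the non-targeting line (NT) and the *Creb3l1*-shRNA1 line. Points are libraries (n = 5 a line), horizontal lines are means and bars are 1 SD, and only *Mirg* and *Begain* overlap between the lines. *Phlda2* had to differ to pass the filter on low counts.

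*Zim1* rose the most. It encodes a zinc finger protein and is expressed from the maternal copy of the *Peg3* domain, where *Peg3* and *Usp29* come from the paternal copy. Its normalised counts in control replicates 1 to 5 were 2068, 2117, 2274, 1993 and 2206, and in knockdown replicates 4429, 3745, 4314, 4058 and 4286. All knockdown libraries lay far above all control libraries. The mean went from 2132 ± 111 to 4167 ± 271 (SD, n = 5 each), a 1.96-fold difference, or 0.97 ± 0.045 on the log2 scale (SE; edgeR adjusted p = 1.9e-11). *Usp29*, a ubiquitin peptidase gene, had 44 counts in the control line and 36 in the knockdown line, and *Peg3* was near 0 in both. *Zim1* was the only gene of its domain on the list with enough counts to be tested. Among 19 other tested genes within 1 Mb of the domain, none was higher by the same test and 4 were lower. Several of the 19 are zinc finger genes. In all 21.1% were called, beside 40.7% of all genes, with a median log2 fold change of -0.13.

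In the other domain with a 1.5-fold difference, *Phlda2* fell and its partners did not pass the test. This domain on chromosome 7 is silenced on the paternal copy by the long non-coding RNA *Kcnq1ot1*, and *Cdkn1c*, *Phlda2* and *Ascl2* are its maternally expressed growth genes. *Phlda2*, a pleckstrin homology protein that limits placental growth, had raw counts of 17, 14, 11, 11 and 13 in control libraries and 2, 4, 0, 3 and 3 in knockdown libraries. The lines did not overlap, and the normalised mean went from 13.6 ± 2.56 to 2.34 ± 1.57 (SD, n = 5 each), a difference of -2.47 on the log2 scale. *Phlda2* passed the filter on low counts through the control line alone, so it had to differ to be tested. No test is given for it, and the depth is thin. *Cdkn1c*, the cell cycle inhibitor p57, lay between 182 and 234 in control libraries and between 220 and 264 in knockdown libraries, a log2 difference of 0.20 ± 0.082 (SE; edgeR adjusted p = 0.040), and passed the threshold with offsets for transcript GC content and length (0.30, adjusted p = 0.0012 from edgeR). *Cdkn1c* shares 30.7% of its exon bases with the antisense gene *Gm44732*, which had 28 counts.

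*Kcnq1ot1* itself showed how 1 library can decide a value. Its normalised counts were 400, 439, 504, 399 and 438 in control libraries and 519, 305, 460, 478 and 540 in knockdown libraries. Knockdown replicate 2 was the lowest of all 10, while replicates 1 and 5 were the highest. On the log2 scale the difference was 0.089 ± 0.15 (SE; edgeR adjusted p = 0.66), with 0.20 without replicate 2 (adjusted p = 0.0071) and -0.077 with offsets for transcript GC content and length (adjusted p = 0.32). The transcript is AU-rich, with a GC content of 40.3%. In knockdown replicates 1, 2 and 5 its departure from the line mean had the opposite sign to that library's correlation with GC content, as the plot against that correlation shows. The part of GC content in the value was not tested beyond these offsets.

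Within 1 Mb of the *Kcnq1ot1* domain 24 genes off the list were tested, of which 11 were lower beside 20.1% of all genes, 5 were higher beside 20.6% and the others did not pass. *Kcnq1*, the potassium channel gene that *Kcnq1ot1* overlaps on the opposite strand, went from 1026 ± 44.7 to 843 ± 48.2 (SD, n = 5 each; log2 fold change -0.28, adjusted p = 4.3e-07 from edgeR). *Slc22a18*, a transporter gene, and *Tnfrsf22*, a decoy receptor gene, had log2 fold changes of -0.37 (adjusted p = 2.7e-05) and -0.60 (adjusted p = 3.5e-09) in the same test. *Tssc4* rose by 0.13 (adjusted p = 0.0015 from edgeR). Counted among the higher genes was also *Th*, with a mean of 1.39 normalised counts in control libraries and 18.2 in knockdown libraries. *Th* passed the filter on low counts through the knockdown line alone, so it had to differ to be tested. *Kcnq1*, *Tssc4* and *Th* were named after their values were seen. In all 66.7% were called, with a median log2 fold change of -0.18. This was the highest share among the 15 windows around domains with a tested member, and it was not tested. The window overlaps that of the *H19*-*Igf2* domain.

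Chromosome 12 carries the *Dlk1*-*Dio3* domain, in which the maternal copy gives a row of non-coding RNAs and the paternal copy gives protein genes. The non-coding RNA *Meg3* had 27 counts in all, *Rian*, the host of C/D box snoRNAs, had 632, and *Mirg*, the host of a microRNA cluster at the far end, had 1533. *Mirg* rose in the test, from 135 ± 8.52 to 169 ± 21.9 (SD, n = 5 each), with 140, 130, 128, 148 and 130 in control libraries and 187, 166, 146, 196 and 152 in knockdown libraries. The lines overlapped at the edge, since knockdown replicate 3 lay below control replicate 4. On the log2 scale the difference was 0.32 ± 0.094 (SE; edgeR adjusted p = 0.0040). The call was lost in DESeq2 (adjusted p = 0.011) and without control replicate 2, 3 or 5 or knockdown replicate 1 or 4, with an adjusted p of 0.010, 0.012, 0.011, 0.017 and 0.024 from edgeR. *Rian* lay between 47.7 and 82.6 in control libraries and between 45.9 and 70.0 in knockdown libraries, with a log2 difference of -0.22 (standard error 0.15, adjusted p = 0.22 from edgeR). *Begain*, a synapse-associated protein gene listed as paternal, fell from 208 ± 20.4 to 151 ± 25.4 (SD, n = 5 each; log2 fold change -0.46, standard error 0.096, adjusted p = 9.9e-05 from edgeR). Its libraries overlapped through knockdown replicate 5, which at 193 was above control replicate 3 at 187.

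*Mirg* matters for the microRNAs cut from it. The RefSeq table placed 14 hairpins with 26 mature microRNAs inside *Mirg* on its strand, with 25 different seeds (bases 2 to 8, the stretch that pairs with targets). Below are miR-134-5p and miR-410-3p, shown as microRNAs with a seed of their own in this cluster, and miR-453 and miR-496a-5p, the pair that shares a seed, with the seed in capitals. They lie on the plus strand of GRCm38.p6, in the order printed, at chr12:109734145-109734166, chr12:109743764-109743784, chr12:109735669-109735692 and chr12:109739132-109739152.
miR-134-5p: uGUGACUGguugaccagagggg
miR-410-3p: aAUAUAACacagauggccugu
miR-453: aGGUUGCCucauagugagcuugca
miR-496a-5p: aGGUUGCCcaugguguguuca
The libraries were made from long poly(A) RNA, and the hairpin genes inside *Mirg* had 5 counts in total, so the mature microRNAs were not measured and the host RNA is all that can be read.

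*Plagl1*, the most abundant of the tested imprinted genes per length, fell by about 30.1%. Its normalised counts were 7348, 7955, 8872, 7788 and 8251 in control libraries and 6123, 4671, 5181, 5652 and 6454 in knockdown libraries. The lines did not overlap, but the spread inside each was wide. On the log2 scale the difference was -0.52 ± 0.094 (SE; edgeR adjusted p = 0.0016), from means of 8043 ± 567 and 5616 ± 715 (SD, n = 5 each). Like *Kcnq1ot1*, *Plagl1* was lowest in knockdown replicate 2 and highest in replicates 1 and 5 of that line, and with offsets for transcript GC content and length the log2 fold change was -0.58 (adjusted p = 8.0e-04 from edgeR). Of 8 neighbours within 1 Mb, 1 was higher and 3 were lower, with a median of -0.067.

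**Figure D3:**
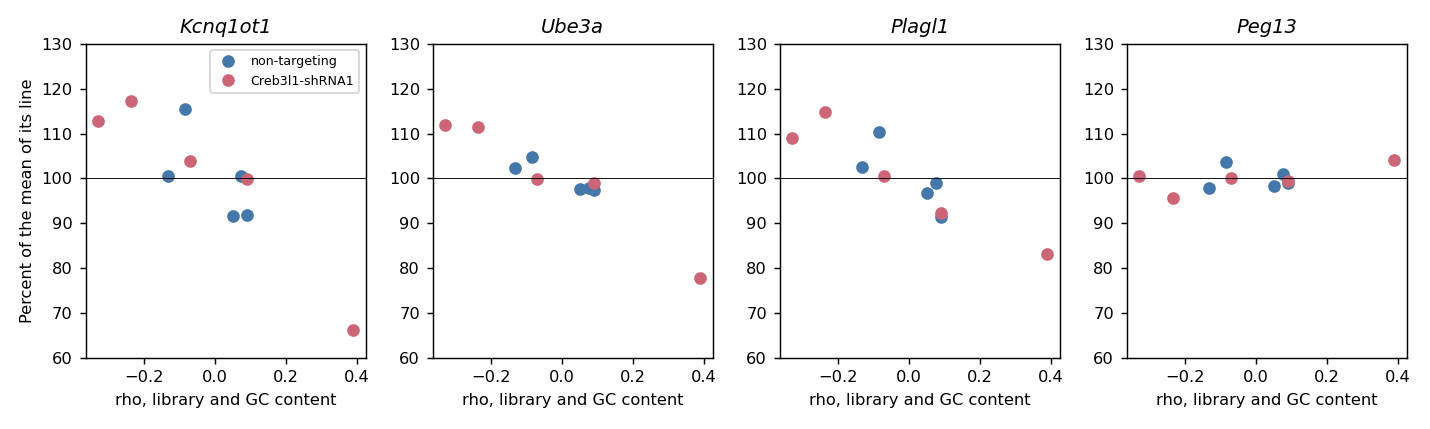
Each library's normalised count of *Kcnq1ot1*, *Ube3a*, *Plagl1* and *Peg13* as a percent of the mean of its line, against the Spearman correlation (rho) across genes between the library's departure from its line and transcript GC content. Blue points are the 5 non-targeting and red points the 5 *Creb3l1*-shRNA1 libraries, and knockdown replicate 2, at a rho of 0.389, is lowest for the first 3 genes and not for *Peg13*.

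*Peg13* and *Trappc9* are a nested pair on chromosome 15. *Peg13* is a non-coding RNA made from the paternal copy inside an intron of *Trappc9*, which encodes a subunit of a vesicle-tethering complex. *Peg13* rose from 1484, 1514, 1553, 1474 and 1467 in control libraries to 2061, 2134, 2038, 2049 and 1958 in knockdown libraries. This was the tightest of the increases, with means of 1498 ± 35.3 and 2048 ± 62.6 (SD, n = 5 each), a difference of 0.45 ± 0.032 on the log2 scale (SE; edgeR adjusted p = 1.4e-15). *Trappc9* was 1164, 1275, 1091, 1250 and 1212 in control libraries and 1156, 1306, 1180, 1158 and 1183 in knockdown libraries. The 2 lines lay on top of each other for *Trappc9*, with a log2 difference of -0.0051 ± 0.041 (SE; edgeR adjusted p = 0.93). The log2 ratio of *Peg13* to *Trappc9* was between 0.24 and 0.51 in control libraries and between 0.71 and 0.83 in knockdown libraries, without overlap. The ratio was chosen after the values were seen and was not tested. The exons of the pair share no bases, but both genes lie on the minus strand. Reads of unspliced *Trappc9* RNA from that intron can therefore count for *Peg13*, and their part in its value was not tested.

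Other nested pairs were less separated. *Commd1*, a gene of copper and membrane protein handling, holds the retrogene *Zrsr1*, a splicing factor copy, in an intron. *Commd1* rose from 559 ± 31.0 to 696 ± 35.7 (SD, n = 5 each), between 525 and 603 in control libraries and between 643 and 730 in knockdown libraries (log2 fold change 0.32, standard error 0.048, adjusted p = 5.1e-07 from edgeR). *Zrsr1* went the same way without passing the threshold, between 432 and 513 and between 507 and 606 (log2 difference 0.17, standard error 0.057, adjusted p = 0.013 from edgeR), and passed it without knockdown replicate 2 (adjusted p = 0.0048) or 5 (adjusted p = 0.0071). The pair shares 412 exon bases on opposite strands, and the strand setting of the counting is not given in the sources used here, so reads of one can count for the other. *H13* fell slightly, from between 5096 and 5340 in control libraries to between 4541 and 4991 in knockdown libraries, a decrease of 9.33% in the mean with no overlap (log2 fold change -0.14, standard error 0.028, adjusted p = 3.6e-05 from edgeR). *Mcts2*, the translation factor retrogene inside it, lay between 279 and 351 in control libraries and between 312 and 362 in knockdown libraries (log2 difference 0.063, standard error 0.070, adjusted p = 0.48 from edgeR). *Zrsr1* and *Mcts2* each have a close parent copy elsewhere in the genome, with which the counting could have split reads. *Blcap*, whose intron holds the nearly silent *Nnat*, was between 1102 and 1177 and between 1025 and 1132 (log2 difference -0.079, standard error 0.037, adjusted p = 0.075 from edgeR).

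Of the imprinted growth genes around insulin-like growth factors, *Igf2r* fell modestly while its ligand gene *Igf2* had no count. *Igf2r* was 5711, 5733, 5275, 5131 and 5439 in control libraries and 4669, 5014, 4777, 4558 and 4600 in knockdown libraries. All knockdown libraries lay below all control libraries, and the mean went from 5458 ± 265 to 4724 ± 182 (SD, n = 5 each), a difference of -0.21 ± 0.031 on the log2 scale (SE; edgeR adjusted p = 5.4e-07). *Airn*, the antisense RNA that silences *Igf2r* on the paternal copy in most tissues, had 2 counts in all. *Grb10*, an adaptor that dampens signals of insulin and IGF1 receptors, was low, between 17.1 and 29.3 in control libraries and between 15.4 and 30.3 in knockdown libraries (log2 difference 0.11, standard error 0.23, adjusted p = 0.72 from edgeR), so a change of moderate size was not detectable at this depth. Of 17 other genes of the insulin-like growth factor axis, 8 were tested, with 4 higher and 3 lower (87.5% in all, beside 40.7% of all genes), a share of few genes that was not tested. *Igfbp4*, a binding protein, rose by 0.60 on the log2 scale (adjusted p = 1.1e-16), and the receptor substrates *Irs1* and *Irs2* each rose by 0.36 (adjusted p = 1.1e-06 and 1.9e-11). *Igf2bp2*, an RNA-binding protein of *Igf2* messages, fell by 0.55 (adjusted p = 2.1e-13), the insulin receptor *Insr* by 0.52 (adjusted p = 4.0e-17) and the adaptor *Grb14* by 0.31 (adjusted p = 6.3e-06), all from edgeR. *Igf1* had no count and *Igf1r* 10.

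*Impact* and *Inpp5f* are genes listed as paternally expressed that stand by themselves. Counts per gene do not tell the transcripts of a gene apart, so a value need not be that of an imprinted transcript alone. *Impact*, an inhibitor of the amino acid sensor kinase GCN2, fell from 965, 1044, 1067, 1045 and 1007 to 727, 707, 714, 839 and 790. The lines were well apart, with means of 1026 ± 40.4 and 755 ± 56.9 (SD, n = 5 each), a difference of -0.44 ± 0.045 on the log2 scale (SE; edgeR adjusted p = 6.8e-11). *Inpp5f*, an inositol phosphatase gene, fell from 399, 386, 418, 398 and 419 to 353, 281, 298, 325 and 343. These lines did not overlap either, with a difference of -0.33 ± 0.066 on the log2 scale (SE; edgeR adjusted p = 4.5e-05). Around *Inpp5f* 29 other genes were tested within 1 Mb, of which 4 were higher and 12 lower, with a median of -0.044, and around *Impact* 8, of which 2 were higher and 2 lower.

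The domains on proximal chromosome 6 and the *Snrpn*-*Ube3a* domain held no listed gene that passed the test. *Mest*, a hydrolase-like gene of the endoplasmic reticulum, lay between 848 and 935 in control libraries and between 860 and 912 in knockdown libraries, with a log2 difference of -0.0044 ± 0.040 (SE; edgeR adjusted p = 0.94). It shares 912 exon bases with *Copg2* on the opposite strand. *Peg10*, a retrotransposon-derived gene, and *Sgce*, which encodes epsilon-sarcoglycan, start back to back from a shared control region and differed by -0.067 (standard error 0.25) and -0.023 (standard error 0.058) on the log2 scale, with adjusted p of 0.85 and 0.77 from edgeR. *Casd1*, an imprinted sialic acid acetyltransferase gene beside them, rose from 302 ± 10.2 to 446 ± 22.9 (SD, n = 5 each; log2 fold change 0.57, adjusted p = 2.6e-10 from edgeR). In the *Snrpn*-*Ube3a* domain, *Mkrn3*, a RING finger gene known for its link to the timing of puberty, was 99.6, 132, 96.6, 97.7 and 126 in control libraries and 153, 152, 104.2, 140 and 148 in knockdown libraries. Knockdown replicate 3 lay within the control range and the others above it. The log2 difference was 0.34 ± 0.11 (SE; edgeR adjusted p = 0.011), and the adjusted p was 0.0012 without that library, 0.0034 without control replicate 2 and 0.0055 without control replicate 5.

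*Ube3a*, the ubiquitin ligase of Angelman syndrome, repeated the pattern of *Kcnq1ot1*. It was 2499, 2510, 2685, 2501 and 2622 in control libraries and 3173, 2208, 2805, 2836 and 3159 in knockdown libraries. All knockdown libraries but replicate 2, the lowest of all 10, were above the control libraries. The log2 difference was 0.15 ± 0.094 (SE; edgeR adjusted p = 0.24), 0.23 without replicate 2 (adjusted p = 4.5e-07) and -0.049 with offsets for transcript GC content and length (adjusted p = 0.12). Its transcript has a GC content of 36.9%, and it shares 1803 exon bases with the antisense host transcript *Snhg14*, which had 967 counts.

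**Figure D4:**
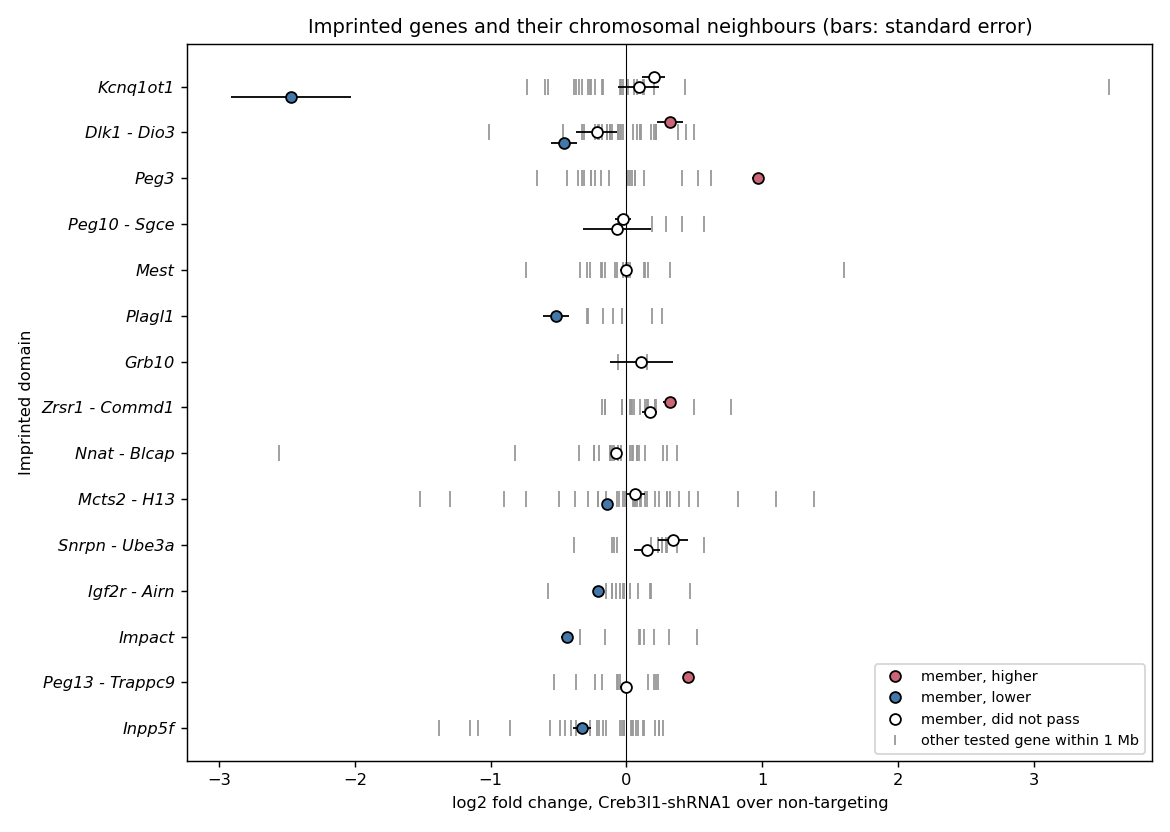
Log2 fold change, *Creb3l1*-shRNA1 over non-targeting, of the 24 tested imprinted genes in 15 domains (circles, with bars of 1 standard error; red higher, blue lower, white did not pass an adjusted p under 0.01) and of other tested genes within 1 Mb (grey ticks). *Zim1*, at 0.97, lies to the right of every neighbour in its domain, and *Phlda2*, at -2.47, to the left of every neighbour in its own. *Phlda2* had to differ to pass the filter on low counts, so its colour is not read as a test.

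Over all domains, the neighbours within 1 Mb were called about as often as genes in general. Of 282 tested non-member genes in these windows, 52 were higher and 58 lower, 39.0% in all beside 40.7% of all genes, with a median log2 fold change of -0.018. A window of 0.5 Mb gave 38.3%. A further list of 45 imprinted genes had 26 tested, of which 10 were higher and 9 lower, with a median of -0.046. This was 73.1% in all, beside 40.7% of all genes, and the share was not tested. *Kcnq1*, *Slc22a18*, *Tnfrsf22*, *Tssc4* and *Th* are on this list and also among the neighbours of the *Kcnq1ot1* domain, so the sets share genes. Only 3 of the 19 changed by at least 1.5-fold, among them *Th*, which had to differ to be tested. *Gnas*, which encodes the stimulatory G protein subunit and is expressed from the maternal copy in pituitary, was abundant and rose from 70169 ± 973 to 86912 ± 1600 (SD, n = 5 each; log2 fold change 0.31, adjusted p = 7.4e-19 from edgeR). *Nespas*, which overlaps the *Gnas* gene on the opposite strand, rose by 0.32 on the log2 scale (adjusted p = 0.0027 from edgeR). Its libraries overlapped between the lines, and the call was lost without knockdown replicate 5 (0.22, adjusted p = 0.026) or control replicate 3 (0.30, adjusted p = 0.012) in the same test. With the strand setting of the counting not given, reads of the far more abundant *Gnas* may count for *Nespas*, which was not tested. *Klf14*, a maternally expressed Krüppel-like factor gene, fell by 0.34 on that scale (adjusted p = 1.0e-11 from edgeR).

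The genes that set and keep imprints were also read. Of 30 such genes 25 were tested, 10 higher and 1 lower (44.0% in all, beside 40.7% of all genes, with 20.6% higher and 20.1% lower), none by 1.5-fold, with a median log2 fold change of 0.065. *Dnmt3a*, which sets methylation, rose from 2073 ± 56.5 to 2793 ± 87.5 (SD, n = 5 each; log2 fold change 0.43, adjusted p = 2.5e-15 from edgeR). *Tet1*, which oxidises methylated cytosine, rose by 0.55 on the log2 scale (adjusted p = 3.8e-08), and *Ehmt2*, a histone H3 lysine methyltransferase gene, by 0.37 (adjusted p = 2.0e-14). *Uhrf1*, which brings the maintenance methyltransferase to copied DNA, was the one that fell, from between 4512 and 4607 to between 3470 and 3764 (log2 fold change -0.33, adjusted p = 8.2e-14 from edgeR). *Dnmt1*, that methyltransferase, named after its value was seen, differed by 0.028 ± 0.022 on the log2 scale (SE; edgeR adjusted p = 0.30), and *Zfp57* had 70 counts in all and was not tested.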

How the data were processed

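Paired-end libraries of poly(A) RNA were sequenced by the authors, who, per the labels and the study's methods, checked reads with FastQC, aligned reads to GRCm38 with STAR and used featureCounts with an Ensembl annotation to count reads per gene. The deposited values are these counts, whole numbers without normalisation. The aligner's settings and the strand setting of the counting are not given in the sources used here. The authors' comparison used DESeq2.

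Everything else was computed here with edgeR 4.0.16, DESeq2 1.42.0 and limma 3.58.1 (R 4.3.3). Genes were kept by filterByExpr (14336 of 53801), libraries were scaled by TMM, and all 10 libraries entered a quasi-likelihood fit with robust estimation and no covariate. The threshold was an adjusted p under 0.01 after Benjamini-Hochberg adjustment over all genes tested. Standard errors are the log2 fold change divided by the square root of F. A normalised count is the count scaled from the effective size of its library to the mean effective size of all 10, and levels per kilobase use merged exons of GENCODE M21 (GRCm38). The biological coefficient of variation was 5.37%. Low counts carry the largest error, and the limits given for a count of 0 cover counting error only. SDs and standard errors include the spread between libraries of 1 line, but not that between lines made anew.

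All 40 listed genes are accounted for. The rule gave values in every library to genes called with at least 1.5-fold whose mean normalised count was at least 20 and to their partners in the domain, and from each other list the 3 largest increases and decreases called with a mean of at least 100. Values of other members were added after they were seen. The members, lists and tests were chosen with earlier results of these data known. Replicate numbers do not pair the libraries (correlations of same-numbered libraries between -0.062 and 0.038). Alternatives were DESeq2, RLE size factors, library totals, no filter, at least 10 counts in every library, leaving out each library, a replicate block, a threshold of 0.05 and at least 1.5-fold. Offsets for transcript GC content and length (smooth functions with 5 degrees of freedom) and a fit without robust estimation were added after the data were seen. On simulated data of this comparison, with 200 of 14336 genes changed, 182 (91%) were recovered and 1 unchanged gene was called. No log2 difference as small as that of *H13* (-0.14) or *Igf2r* (-0.21) was simulated, so the 91% does not describe such small ones. The simulation also had far fewer genes changed than the 5837 called in the data. Words in promoters and microRNA positions came from RefSeq tables of GRCm38.p6.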

Additional observations from a re-analysis of the deposited data

Results flagged for a closer look

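In the 50 groups of 5 libraries examined for single libraries far from the others (the 24 tested imprinted genes and *Creb3l1* in each line), 2 passed Dixon's value of 0.71, where chance gives about 2.50. The normalised count of *Mkrn3* in knockdown replicate 3 was 104.2, while the other 4 knockdown libraries lay between 140 and 153. The gap was 0.732 of the range of the group. The normalised count of *Trappc9* in knockdown replicate 2 was 1305.7, while the others lay between 1156 and 1183, and the gap was 0.817 of the range. Knockdown replicate 2 was also the library with the strongest positive correlation with transcript GC content (0.389), and *Trappc9* has a GC content of 55.0%. Its part in the value was not tested.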

How the results depend on the processing

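Of the 24 tested imprinted genes, 12 kept their direction and their side of the threshold in all 18 alternative fits. Among them were *Zim1*, *Peg13*, *Commd1*, *Begain*, *Impact*, *Inpp5f*, *Igf2r*, *H13* and *Phlda2*. *Phlda2* had 17 fits, since it could not be fitted at 10 counts in every library, and it had to differ to be tested. At a threshold of 1.5-fold the calls fell to 1108 of all genes (470 higher, 638 lower), 2 listed imprinted genes (1 higher, 1 lower), 3 of the other imprinted genes (1 higher, 2 lower), 0 imprint-keeping genes (0 higher, 0 lower), 2 growth factor axis genes (2 higher, 0 lower) and 2 cell type markers, because the threshold adds a condition. At an adjusted p under 0.05, 7 imprinted genes were higher. With offsets for transcript GC content and length 3 imprint-keeping genes were lower in place of 1, *Kcnq1ot1* turned to -0.077, *Ube3a* to -0.049, *Mest* to 0.017 and *Trappc9* to 0.0059 on the log2 scale, and with library totals alone *Mest* turned to 0.0078 and *Trappc9* to 0.0066. The cause was not tested. With each library left out in turn, between 3 and 7 imprinted genes were higher, 7 of them without knockdown replicate 2 and 3 without control replicate 3 or knockdown replicate 1 or 4, while 7 were lower in each fit and between 10 and 14 were called in all. Over the same fits the log2 difference ranged from -0.16 to 0.039 for *Peg10*, from -0.066 to 0.027 for *Sgce*, from -0.017 to 0.019 for *Mest*, from -0.011 to 0.24 for *Grb10* and from -0.038 to 0.020 for *Trappc9*, none with an adjusted p under 0.01. The replicate numbers did not pair the libraries. With the replicate block 12 imprinted genes were called in place of 11, *Zrsr1* (adjusted p = 0.0073) and *Mkrn3* (adjusted p = 0.0055) passing and *Plagl1* (-0.52, adjusted p = 0.015) not, in the same edgeR test. DESeq2 called 10, library totals alone 13, no filter 13, and the scalings moved the median of all genes by at most 0.0213 on the log2 scale. Counts limit what can be said of *Phlda2*, *Grb10* and *Peg10* and of the 16 genes not tested.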

Other observations

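*Th* and *Ddc*, which act in turn in catecholamine synthesis and are both on the list of other imprinted genes, were named after their values were seen. *Th*, the rate-limiting enzyme of catecholamine synthesis, lies between the *H19*-*Igf2* and *Kcnq1ot1* domains on chromosome 7. It had raw counts of 1, 0, 1, 1 and 4 in control libraries and 20, 17, 16, 21 and 19 in knockdown libraries. It was tested only because of the knockdown line, where it is high, so it had to differ to pass the filter on low counts, and no test is given for it. *Ddc*, the decarboxylase near *Grb10*, was abundant in both lines and rose from 8499 ± 198 to 9431 ± 175 normalised counts (SD, n = 5 each; log2 fold change 0.15, adjusted p = 8.0e-07 from edgeR).

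*Pappa2*, a protease that frees insulin-like growth factors from binding proteins, rose from 29.5 ± 6.17 to 163 ± 20.1 normalised counts (SD, n = 5 each; log2 fold change 2.45, standard error 0.14, adjusted p = 7.2e-19 from edgeR), in cells in which *Igf1* and *Igf2* had no count. Its 5 knockdown libraries lay between 134 and 182 and its 5 control libraries at 35.8 or below. Of the 7 corticotroph markers tested, 2 were higher and 4 lower (85.7% in all, beside 40.7% of all genes), a share of few genes that was not tested. *Neurod1* rose by 0.62 on the log2 scale (adjusted p = 3.2e-19) and *Pcsk1*, a prohormone convertase, fell by 0.46 (adjusted p = 1.2e-19), both from edgeR.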
